A study of Mus musculus with 4 samples.

Results

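The set described here holds every H3K4me3 peak on the 19 autosomes of mouse embryonic stem cells, 21006 of the 21624 peaks in the H3K4me3 list and of the 149438 peaks in the 3 lists of the series. Membership rested on the chromosome name alone. The peaks came from 1 ChIP-exo library, made by immunoprecipitating chromatin and trimming the bound DNA with an exonuclease before sequencing. The cells were Bruce-4, an embryonic stem cell line of C57BL/6J genotype, grown on gelatin in serum/2i/LIF medium, a mixture that holds stem cells undifferentiated. They carried no other treatment in the labels. In all, 10000000 cells were crosslinked in 1% formaldehyde (10 min) and the chromatin was recovered with a MilliporeSigma antibody. The same line, handled alike, gave 2 CTCF libraries (1 union peak list) and 1 RAD21 library, whose lists of 50546 and 74004 autosomal peaks serve below only to show where H3K4me3 spacing differed. The list gave positions without height or depth, and the library had no replicate. Intervals below are therefore Wilson 95% intervals, which cover counting error only, and SDs are over chromosomes, a measure of spread along 1 genome.

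H3K4me3 is trimethylation of lysine 4 on histone H3. It is written mainly by the SET1 and MLL (KMT2) complexes, removed by KDM5 demethylases and read by proteins with PHD or chromo domains, among them the TFIID subunit TAF3 and the ING proteins. The mark lies on nucleosomes that flank the starts of active and poised genes, above all where the promoter is rich in CpG dinucleotides, which recruit the writers through CXXC zinc fingers. Active promoters usually carry a stretch with few nucleosomes just upstream of the start, so a marked promoter can show as a continuous domain or as separate blocks on either side. In embryonic stem cells the mark also sits on silent developmental regulators together with the Polycomb mark H3K27me3.

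The label was checked against marker genes of cell types, counting a gene as marked when a peak lay within 1 kb of either of its outermost ends. Of 10 embryonic stem cell markers, 9 were marked, Pou5f1, Sox2, Nanog and Klf4 among them, with 739 to 2792 bp covered. Esrrb was the exception. Of 12 fibroblast markers, 4 were marked (Fn1, Thy1, Twist1 and Twist2), and the collagen genes Col1a1, Col1a2 and Col3a1 were not. All 5 markers of the primed or early differentiated state were marked, as were 3 of 4 of trophoblast and 2 of 4 of primitive endoderm. Eomes counts in both the primed and the trophoblast list. Of all autosomal protein-coding genes 58% were marked, so the counts for trophoblast and primitive endoderm were near the general share. A peak records the mark and not expression, and the part of other cell types in the list was not tested.

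Promoter sequences of 6 genes are shown because CpG content is compared between the classes described below. Each is the 250 bases before a gene start, 5′ to 3′ on the gene's strand, from the RefSeq promoter table of assembly GRCm38.p6, the build called mm10. Capitals mark CpG. The ratio given with each is the observed over the expected number of CpG, which corrects for the C and G content. They were chosen after their values were seen. Tet2 (a 5-methylcytosine oxidase), Kmt2a (an H3K4 methyltransferase) and Ezh2 (the Polycomb H3K27 methyltransferase) each had a start in the gap between the peaks of a run. Kdm1a (an H3K4 demethylase) and Pou5f1 (the pluripotency factor OCT4) had a start inside a single peak, and Alb (liver albumin) had its nearest peak 93621 bp away.
Tet2, run, chr3:133544391-133544640, minus strand, 51 CpG, ratio 1.19: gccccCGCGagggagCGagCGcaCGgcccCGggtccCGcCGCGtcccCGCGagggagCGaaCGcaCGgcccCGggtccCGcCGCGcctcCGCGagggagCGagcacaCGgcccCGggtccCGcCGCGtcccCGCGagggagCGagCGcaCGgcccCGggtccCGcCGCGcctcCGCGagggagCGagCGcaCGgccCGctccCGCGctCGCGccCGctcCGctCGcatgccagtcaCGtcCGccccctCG
Kmt2a, run, chr9:44881290-44881539, minus strand, 29 CpG, ratio 0.787: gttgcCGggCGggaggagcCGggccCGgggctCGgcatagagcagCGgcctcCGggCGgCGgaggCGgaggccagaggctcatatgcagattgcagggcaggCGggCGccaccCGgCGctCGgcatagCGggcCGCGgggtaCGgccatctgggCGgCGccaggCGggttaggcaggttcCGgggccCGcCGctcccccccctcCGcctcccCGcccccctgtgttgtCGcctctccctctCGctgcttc
Ezh2, run, chr6:47595031-47595280, minus strand, 23 CpG, ratio 0.910: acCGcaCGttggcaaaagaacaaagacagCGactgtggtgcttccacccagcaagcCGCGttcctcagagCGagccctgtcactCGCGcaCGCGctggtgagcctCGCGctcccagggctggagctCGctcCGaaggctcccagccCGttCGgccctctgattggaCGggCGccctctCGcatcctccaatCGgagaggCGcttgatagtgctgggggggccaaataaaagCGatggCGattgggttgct
Kdm1a, single peak, chr4:136602724-136602973, minus strand, 21 CpG, ratio 0.994: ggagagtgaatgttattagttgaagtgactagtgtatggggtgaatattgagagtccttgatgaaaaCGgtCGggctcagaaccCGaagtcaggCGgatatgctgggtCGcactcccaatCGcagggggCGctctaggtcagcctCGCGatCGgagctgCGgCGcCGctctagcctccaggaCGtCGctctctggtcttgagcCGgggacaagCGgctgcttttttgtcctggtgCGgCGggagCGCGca
Pou5f1, single peak, chr17:35505782-35506031, plus strand, 8 CpG, ratio 0.334: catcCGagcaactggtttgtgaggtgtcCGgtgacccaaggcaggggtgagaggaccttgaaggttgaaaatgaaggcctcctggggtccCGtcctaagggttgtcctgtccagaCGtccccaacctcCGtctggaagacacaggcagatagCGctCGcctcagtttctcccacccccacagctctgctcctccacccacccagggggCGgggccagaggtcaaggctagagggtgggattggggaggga
Alb, no peak, chr5:90460620-90460869, plus strand, 2 CpG, ratio 0.261: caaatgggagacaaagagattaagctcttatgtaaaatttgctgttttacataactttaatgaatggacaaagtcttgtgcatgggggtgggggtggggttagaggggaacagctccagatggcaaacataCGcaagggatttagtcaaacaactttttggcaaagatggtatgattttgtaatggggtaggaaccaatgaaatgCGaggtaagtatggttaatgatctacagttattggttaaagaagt
Pou5f1 is the member of this group whose marked promoter had few CpG, and its single peak was 2019 bp long. The Alb promoter had fewer CpG still.

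Peaks were 294 to 3297 bp long, with a median of 683 bp and quartiles of 431 and 1000 bp, and together covered 15.9 Mb. The shortest length, 294 bp, was shared by 1564 peaks (7.45%, interval 7.10 to 7.81%). Peaks stood unevenly along the chromosomes: the median gap between neighbours was 33855 bp and the mean 113152 bp, 3.34 times as long. The quartiles of the 20987 gaps ran from 11954 to 89773 bp, and the extremes were 153 bp and 6473072 bp. Chromosome medians spanned 24028 bp on chromosome 7 to 50597 bp on chromosome 1 (SD 8003 bp over 19 chromosomes).

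Spacing had 2 separate components. Gaps of at most 1 kb numbered 1979 (9.43%, interval 9.04 to 9.83%, SD 1.09 points over chromosomes), whereas gaps of 1 to 3 kb numbered only 267 (1.27%). Short gaps were crowded near the shortest, 153 bp: 485 were at most 200 bp and 743 lay between 200 and 300 bp. From there the density dropped to 41 gaps per 100 bp between 500 and 1000 bp and to 13.8 and 12.9 per 100 bp between 1 and 2 kb and between 2 and 3 kb. It then rose again to 37.9 per 100 bp between 5 and 10 kb, where the long component set in. In steps of 1 kb, 138, 129, 142 and 284 gaps lay between 1 and 5 kb, and 401 lay between 5 and 6 kb.

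In the whole lists, a short component of this kind stood out less for the other antibodies. Of gaps of at most 3 kb, 88.1% were at most 1 kb for H3K4me3, against 38.5% for CTCF and 46.1% for RAD21, although all 3 lists had 10.7 to 13.5% of gaps at or under 3 kb. Gaps of at most 1 kb made up 9.43% for H3K4me3, 5.20% for CTCF and 5.54% for RAD21, and 1.85% and 1.12% for the 21006 longest CTCF and RAD21 peaks. At the limit of 3 kb H3K4me3 had the lowest share of the 3 whole lists, 10.7%. Its share was also lowest when each list was reduced to the peaks above its own median length. Gaps of at most 3 kb were then 2.05% for H3K4me3, 5.59% for CTCF and 5.28% for RAD21. The share of gaps at most 1 kb was not compared in these reduced lists. With 1 list per antibody, no difference could be tested over samples. The step near 5 kb was not particular to the histone mark, since the RAD21 list held 2043 gaps of 4 to 5 kb and 2878 of 5 to 6 kb. Whether peak calling had a part in that step was not tested.

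**Figure D1:**
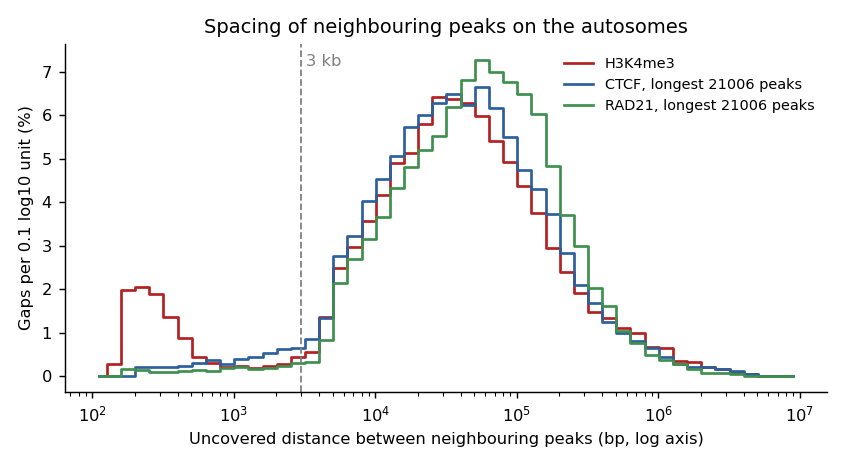
Share of gaps (percent per 0.1 log10 unit, vertical axis) by the uncovered distance between neighbouring autosomal peaks (bp, log axis) for all H3K4me3 peaks and for the 21006 longest CTCF and RAD21 peaks. The H3K4me3 curve has a hump below 1 kb with 9.43% of its gaps and a trough between 1 and 5 kb, while 1.85% of the plotted CTCF and 1.12% of the plotted RAD21 gaps lie below 1 kb (5.20% and 5.54% in the whole lists); the dashed line marks 3 kb.

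At the other extreme, 392 gaps exceeded 1 Mb and together spanned 708 Mb, 29.8% of all the uncovered sequence between neighbours. Genes are given below where their midpoint lay in 1 of the 10 longest gaps. Such a gene can still have an end at a peak that borders the gap, so it need not be unmarked. The longest, 6.47 Mb on chromosome 14 (chr14:87417787-93890858), held Pcdh9 and Pcdh20 (protocadherins) and Tdrd3. On chromosome 15 a gap of 5.74 Mb (chr15:19626374-25364234) held the cadherins Cdh12 and Cdh18 with Acot10 and Hnrnpa1l2-ps2. A gap of 5.39 Mb on chromosome 6 (chr6:101377916-106769154) held the contactins Cntn3, Cntn4 and Cntn6 and the adhesion gene Chl1, with Il5ra. Csmd3 and Trps1 lay in a gap of 5.12 Mb on chromosome 15, and 4931408C20Rik and Gm597 in one of 4.84 Mb on chromosome 1. Pcdh18 and the cystine transporter gene Slc7a11 lay in 4.71 Mb of chromosome 3. Lrp1b (a giant lipoprotein receptor) and Kynu lay in 4.71 Mb of chromosome 2, Pcdh7 in 4.68 Mb of chromosome 5 and Olfm4 in 4.61 Mb of chromosome 14. The remaining member of the 10 longest, 4.65 Mb on chromosome 18, held 16 lncRNA genes and no protein-coding gene. Unassembled sequence within gaps was not examined.

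Sparse and dense neighbourhoods were only loosely continuous. The logarithm of a gap and that of the next had a Pearson r of 0.0953 and a Spearman rho of 0.195 over 20968 neighbouring pairs. Where both gaps exceeded 3 kb, r was 0.358 and rho 0.332 over 16619 pairs, so the weak relation over all pairs included the short gaps inside runs. Neighbouring pairs share a peak and a library, and these coefficients are descriptions.

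Peak density followed gene density. In 1 Mb windows, 2441 in all, the median was 6 peaks (quartiles 2 and 12, highest 69) and 5 protein-coding genes. Peak and gene counts had a Spearman rho of 0.797 and a Pearson r of 0.776. Within single chromosomes rho ran from 0.641 on chromosome 7 to 0.898 on chromosome 12 (mean 0.798, SD 0.0660, 19 chromosomes). Chromosome 11 had 14.0 peaks per Mb and chromosome 14 had 5.82, and across the 19 chromosomes peaks and genes per Mb had an r of 0.895. The windows share 1 library and 1 annotation, so no p is given.

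Gene-dense windows had more peaks but fewer per gene. Windows with 1 to 4 genes had a median of 2 peaks and 1.44 peaks per gene, those with 10 to 19 genes 14 peaks and 1.04 per gene, and the 52 windows with 40 or more genes 37 peaks and 0.677 per gene. The share of peaks that belonged to runs was 19.8, 19.4 and 19.3% in windows with 1 to 4, 5 to 9 and 10 to 19 genes. It was higher only in the densest classes, 22.4% with 20 to 39 genes and 27.7% (interval 25.7 to 29.9%) with 40 or more. In windows without a gene it was 8.90% (13 of 146 peaks, interval 5.28 to 14.6%). The median gap was 109578 bp with 1 to 4 genes and 13206.5 bp with 40 or more. Whether the closer spacing alone gives the higher share was not tested. The 244 windows with the most peaks, each with at least 21, held 35.7% of peaks and 31.7% of the 20665 autosomal protein-coding genes. No peak lay in 351 windows (14.4%), and 183 of these had no protein-coding gene either. The gene table lists 105 coding genes that end before 3 Mb, ahead of the first peak of any autosome, and none was marked. How the table placed these genes was not checked. Without them 321 of 2411 windows (13.3%) had no peak, 168 of these no gene, and rho was 0.800, in an alternative added after the data had been seen. In the full table, 100 of the 283 windows without a gene held a peak.

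Clusters of sensory receptor genes were among the windows with many genes and few peaks. In 54 windows most of the genes were olfactory or vomeronasal receptors, which are expressed one at a time in sensory neurons. These windows had a median of 22.5 genes and 2 peaks, and 16 had no peak. With receptor, keratin and defensin genes left out of the gene counts, an exclusion made after the data had been seen, rho was 0.842 and r 0.858. Among windows with at most 1 peak, the one with the most genes (chr7:103000001-104000000) had 56 genes, 49 of them olfactory receptors, around the beta globin genes Hbb-bt, Hbb-bs and Hbb-y. Its single peak touched none of the genes' ends. The next were chr10:129000001-130000000, with 50 genes, and chr2:86000001-87000000, with 49, and in each 49 were olfactory receptors. In chr9:38000001-39000000, with 43 receptors among 44 genes, the 1 peak lay at the end of a coding gene. Window chr2:89000001-90000000 had 42 genes, all olfactory receptors, and no peak. Not all such windows were in receptor clusters. Window chr3:92000001-93000000, which holds the epidermal gene Lor, had 42 genes and 1 peak, and chr8:21000001-22000000 had 41 genes and 1 peak; both were picked out after their values were seen.

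**Figure D2:**
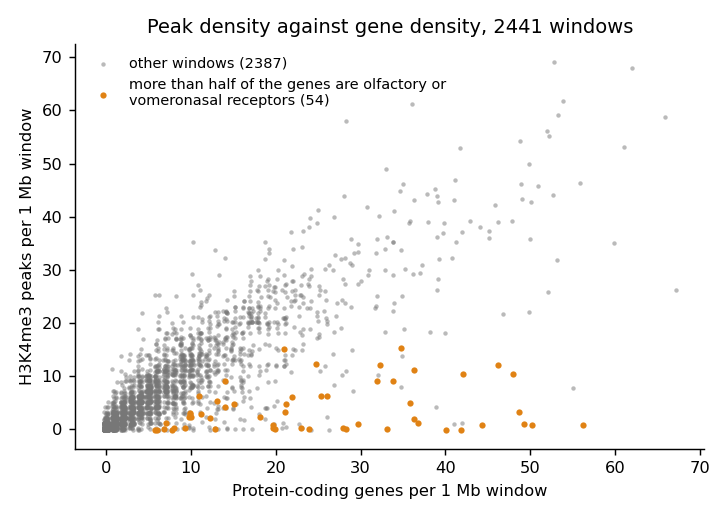
H3K4me3 peaks per 1 Mb window (vertical axis) against protein-coding genes per window (horizontal axis), 1 point per window for 2441 windows, with small random shifts to separate points. The 54 windows in which most genes are olfactory or vomeronasal receptors (orange) stay at or under 15 peaks, while other windows (grey) climb with gene number to 69 peaks.

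The densest windows lay in gene-dense segments. The first, chr7:19000001-20000000, had 69 peaks, 16 runs and 53 genes, of which 38 were marked, and spans the DNA repair genes Ercc1 and Ercc2, the mitochondrial import gene Tomm40 and the apolipoprotein gene Apoe. The second, chr11:69000001-70000000, had 68 peaks with 50 of 62 genes marked and includes Trp53 (the tumour suppressor p53), Aurkb (a mitotic kinase), Per1 (a clock gene) and Polr2a (the largest subunit of RNA polymerase II). In chr10:80000001-81000000, which holds Gpx4, Stk11 and the H3K79 methyltransferase gene Dot1l, 48 of 54 genes were marked by 62 peaks. Window chr8:84000001-85000000 had 61 peaks for 36 genes, 27 of them marked, and holds the erythroid factor gene Klf1 and the AP-1 gene Junb. The other 6 of the top 10 had 54 to 59 peaks. They include chr7:127000001-128000000 with the H3K4 methyltransferase gene Setd1a and chr17:24000001-25000000 with Rps2, Tsc2 and Pkd1.

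Windows with many peaks and at most 5 genes had most of their peaks away from coding gene ends. Choosing windows by many peaks and few genes favours this arrangement. In chr14:76000001-77000000, 22 peaks accompanied 4 genes (Gpalpp1, Nufip1, Tsc22d1 and Serp2), and 6 of the peaks lay at a coding gene end. In chr18:82000001-83000000, 4 of 19 peaks lay at an end of its 4 genes, which include the myelin gene Mbp and the zinc finger genes Zfp236 and Zfp516. In chr5:148000001-149000000, with the arginine transporter gene Slc7a1, 3 of 17 did so. Window chr19:57000001-58000000 had 4 of 15 at an end and chr1:89000001-90000000, with the homeobox gene Gbx2, had 3 of 14. With lncRNA ends added, the counts at an end were 8, 7, 5, 5 and 7 peaks in these windows, in the order given. Tsc22d1 is a transcription regulator that responds to TGF-beta. The 5 windows' median peak lengths were 424 to 596.5 bp, under the 683 bp of all peaks.

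Most peaks stood alone. A run was defined as peaks each at most 3 kb from the next and a singleton as a peak with no neighbour that close. Singletons numbered 16654 (79.3% of peaks), and 2106 runs held the other 4352 (20.7%, interval 20.2 to 21.3%). The share in runs ranged from 16.0% on chromosome 1 to 24.9% on chromosome 8 (SD 2.68 points). Pairs predominated: 1976 runs had 2 peaks, 121 had 3 and 9 had 4 or 5. Gaps inside runs had a median of 282.5 bp, and 1774 of 2246 (79.0%) were at most 500 bp. After removal of the shorter peaks, up to the median length, 4.06% of peaks were in runs.

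Runs covered more sequence than singletons, which their definition favours because it adds up at least 2 peaks. Taken one by one, peaks in runs were shorter. The median run spanned 1678 bp from its first to its last base and had 1303 bp under peaks (quartiles 1043 and 1564), against 720 bp (445 and 1047) for a singleton. A peak within a run had a median of 571 bp, and this fell with the number of peaks, from 579 bp in runs of 2 to 500 bp in runs of 3 and 443 bp in runs of 4 or 5. On each of the 19 chromosomes the median singleton was longer than the median peak in a run, by 146 ± 31.8 bp (SD, n = 19 chromosomes). The shortest length made up 8.08% of singletons and 5.01% of peaks in runs.

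Runs lay at protein-coding genes more often than singletons did. Of runs, 1702 (80.8%, interval 79.1 to 82.4%) had a coding gene end within 1 kb, against 9066 singletons (54.4%, 53.7 to 55.2%). The difference was 26.9 ± 5.70 percentage points (SD, n = 19 chromosomes) and above 0 on all 19. A run is longer and meets more by its span, and measured from the centre the shares were 70.8% and 51.6%. Counted peak by peak, 73.4% of peaks in runs lay at a coding end. At least 2 distinct coding gene ends were met by 490 runs (23.3%) and 1355 singletons (8.14%), and by 38.0% of runs of 3. Both ends of 1 short gene count here as 2. With lncRNA genes added, 84.9% of runs and 59.7% of singletons lay at an end.

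Away from all coding and lncRNA ends lay 6706 singletons (40.3%) and 317 runs (15.1%). Of these singletons, 3709 were inside coding genes and 2997 between them, and they were short, with a median of 471 bp against 896 bp for singletons at ends. Runs away from ends differed less in span, 1538 against 1703 bp. Inside coding genes lay 216 of them and between genes 101. Exons, introns and UTRs were not used here.

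The runs with the most peaks differed in how their peaks were spread. The only run of 5 (chr19:26604592-26607575) lay at Smarca2, which encodes the BRM ATPase of the BAF remodelling complex. Its peaks measured 294, 329, 310, 365 and 444 bp, with gaps of 235, 441, 195 and 371 bp. A span of 2984 bp thus held 5 short blocks. Arid1a, another BAF subunit, had a run of 4 (chr4:133751655-133757372, peaks of 466, 705, 443 and 388 bp), in which the last peak stood 2680 bp from the others. Mxi1, a MAX-binding antagonist of MYC, had 4 peaks of 318, 750, 454 and 937 bp (chr19:53310354-53314149). Hnrnpl, a splicing regulator, had 4 in 3325 bp (chr7:28808562-28811886). The secreted ribonuclease genes Rnase4 and Ang shared 4 peaks in 3176 bp (chr14:51088213-51091388), with gaps of only 162 to 195 bp.

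Neighbouring genes shared other long runs. Xkr8 (a phospholipid scramblase) and Smpdl3b (a phosphodiesterase) lay at 4 peaks in 6728 bp (chr4:132731841-132738568), where peaks of 641 and 1008 bp flanked a pair at the shortest length. Ppm1m (a phosphatase) and Twf2 (the actin-binding twinfilin 2) lay at 4 peaks in 4838 bp (chr9:106198706-106203543), arranged as 2 close pairs 2905 bp apart. Inside Tenm4, a teneurin gene, 4 peaks in 3625 bp lay at no annotated end. The longest run of all, 8437 bp (chr13:23445483-23453919), lay at the lncRNA gene Gm46404 and had no coding end. Sp6, a zinc finger factor of the Sp family, had 3 peaks in 7097 bp (chr11:97019089-97026185). The other long runs, each of 3 peaks, included those at Marf1 and Nde1 (5248 bp), Acbd4 and Hexim1 (5105 bp; Hexim1 inhibits the elongation kinase P-TEFb), Gabbr1 (5026 bp; a GABA-B receptor subunit), Rps2 and Ndufb10 with the lncRNA Snhg9 (5001 bp) and Borcs6 (4997 bp). A run of 5874 bp on chromosome 1 (chr1:133664461-133670334) had no gene end within 1 kb.

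**Figure D3:**
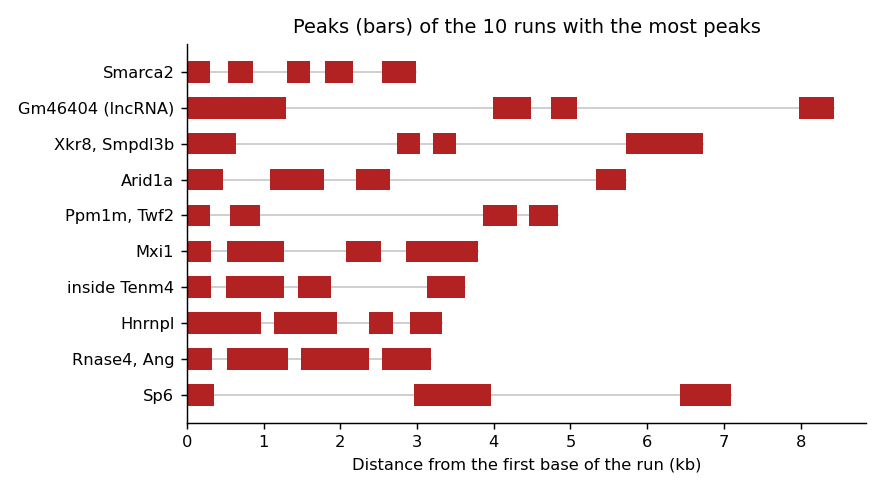
The 10 runs with the most peaks, drawn to scale from their first base (horizontal axis, kb), each red bar a peak and each grey line the run; labels give coding genes with an end within 1 kb, or the lncRNA or the surrounding gene. The 5 peaks of Smarca2 sit within 2984 bp, while the run at Gm46404 spreads 4 peaks over 8437 bp.

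Gene starts with their strand came from the RefSeq promoter table, which matched 16457 of the 20665 coding genes (79.6%) with 20063 distinct starts on 18 autosomes. Of these starts, 2117 lay within 1 kb of a run, 9596 of a singleton and 8350 of neither. A peak covered the start itself at 71.3% of singleton starts but at 41.7% of run starts. Around run starts the cover was 67.5% at 400 bp upstream, 30.0% at 100 bp upstream, 31.0% at 50 bp upstream and 83.7% at 200 bp into the gene. Around singleton starts it rose without a dip, from 32.2% at 400 bp upstream through 52.9% at 100 bp upstream to 88.7% at 200 bp into the gene. A run contains a gap by definition, but its definition does not place the gap relative to the start.

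**Figure D4:**
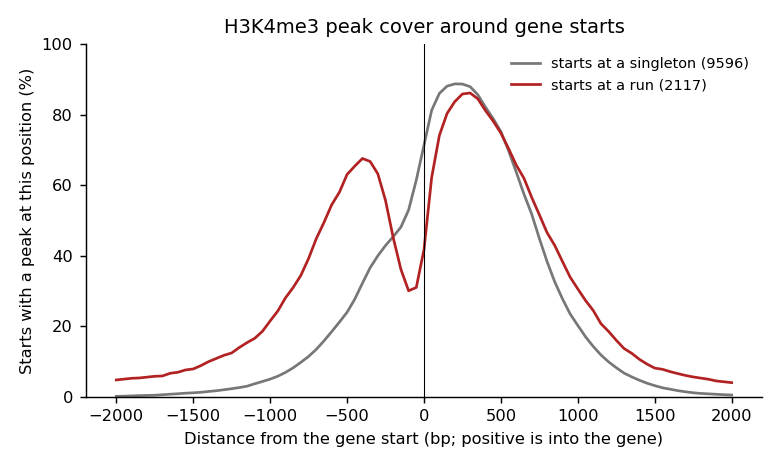
Share of gene starts with a peak at each position (percent, vertical axis) from 2000 bp upstream to 2000 bp into the gene (horizontal axis, steps of 50 bp) for 2117 starts at runs (red) and 9596 at singletons (grey). Run starts show a trough at 30.0% just upstream of the start between 2 maxima, and singleton starts show a single maximum of 88.7% inside the gene.

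In pairs of peaks the start lay in the gap more often than in either peak, with the longer peak inside the gene. Of 1916 runs of 2 on these chromosomes, 937 had exactly 1 start within 1 kb. The start lay between the peaks in 493 (52.6%, interval 49.4 to 55.8%), in the downstream peak in 232 (24.8%), in the upstream peak in 141 (15.0%) and outside the run in 71 (7.58%). The downstream peak was the longer in 679 (72.5%, 69.5 to 75.2%) and in the majority of them on each of 18 chromosomes, with medians of 738 bp downstream and 477 bp upstream. Where the start lay between the peaks these were 776 and 445 bp, and the downstream peak was longer in 405 (82.2%). From such starts the downstream peak began at a median of 74 bp (quartiles 37 and 149) and the upstream peak ended at 188 bp (134 and 274), so the gap reached farther upstream than into the gene. Pairs more than 1 kb apart, 76 in all, differed: the downstream peak was longer in 44.7%, against 74.9% of the 861 closer pairs. For peaks longer than the median, a setting added after the data had been seen, the shares were 45.6% with the start between the peaks and 57.8% with the longer peak downstream.

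Starts were dense in the short gaps but not in the long ones. Of 2182 gaps inside runs, 916 (42.0%, interval 39.9 to 44.1%) held a start, at 0.960 starts per kb, against 0.325 per kb in the peaks of runs and 0.539 per kb in singletons. The density was 2.24 per kb in gaps of at most 200 bp and 0.191 per kb in gaps of 1 to 3 kb, below both kinds of peak. The share was 35.1% in gaps of at most 200 bp, 47.6% in those of 300 to 500 bp and 31.4% in those of 1 to 3 kb. Singletons with exactly 1 start, 6410 in all, were skewed in the same direction as the pairs. Their upstream edge lay at a median of -91 bp from the start (quartiles -383 and 11) and their downstream edge at 743 bp (545 and 946). The start was inside the peak in 69.6% and the centre lay downstream of it in 88.4%.

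Runs with starts on both strands were more symmetric than those with 1 start. Starts on both strands lay at 266 runs of 2, 19.4% of the 1371 with any start, against 551 (7.05%) of the 7817 singletons with a start. In 250 of these runs the starts pointed apart, and in 209 of the 250 (83.6%) a start lay between the peaks. The longer peak was at most 2 times the shorter in 69.2% (interval 63.2 to 74.6%) of these and in 59.0% (55.8 to 62.1%) of the runs with 1 start. Median lengths were 514 and 842 bp in the first group and 417 and 829 bp in the second. No start in the table lay within 1 kb of 545 runs of 2 (28.4%).

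The median CpG ratio was highest at run starts, with wide overlap between runs and singletons. Among the sequences printed above, the single-peak Kdm1a had a higher ratio than Kmt2a and Ezh2 in runs. The median CpG ratio in the 250 bases before the start was 0.848 (quartiles 0.690 and 0.977) at runs, 0.735 (0.560 and 0.888) at singletons and 0.196 (0.0938 and 0.342) at starts without a peak. The difference between runs and singletons was 0.113 ± 0.0320 (SD, n = 18 chromosomes) and above 0 on all 18. It was smaller at equal covered length. Where 500 to 1000 bp were covered the medians were 0.747 and 0.685, for 1000 to 1500 bp 0.848 and 0.798, and for 1500 to 2500 bp 0.873 and 0.837. A ratio above 0.6 was found at 84.3% of run starts, 70.4% of singleton starts, 7.90% of starts without a peak and 45.9% of all starts. With peaks joined up to 10 kb, the difference between runs and singletons was 0.0312.

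The letters TATAAA, searched on the gene's strand from -45 to -11 before the start, occurred at 0.897% of run starts (interval 0.575 to 1.40%), 1.04% of singleton starts (0.858 to 1.27%) and 5.29% of starts without a peak, against 2.80% of all. Runs and singletons did not differ beyond these intervals. A match is a description of the letters and not of a bound factor.

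Among the 20665 protein-coding genes, 11977 were marked (58%), and 2170 of all genes (10.5%) had their mark in a run. These are 18.1% of marked genes (interval 17.4 to 18.8%, SD 3.15 points over chromosomes), the share against which the lists below are read. Runs of 3 or more peaks accounted for 160 genes. Marked genes had a median of 1358 bp covered in runs (quartiles 1118 and 1615), with the peaks of a run added up, and 948 bp at singletons (698 and 1245). The lists were not tested as sets, and genes that share a run count separately. In each list but that of the readers of the mark, the interval of the share in runs includes the 18.1%. A gene called unmarked had no peak within 1 kb of an outermost end. Starts inside genes were not looked at for the lists, so an unmarked gene can still carry the mark at such a start. Among peaks longer than the median, 2.91% of marked genes were in runs.

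**Figure D5:**
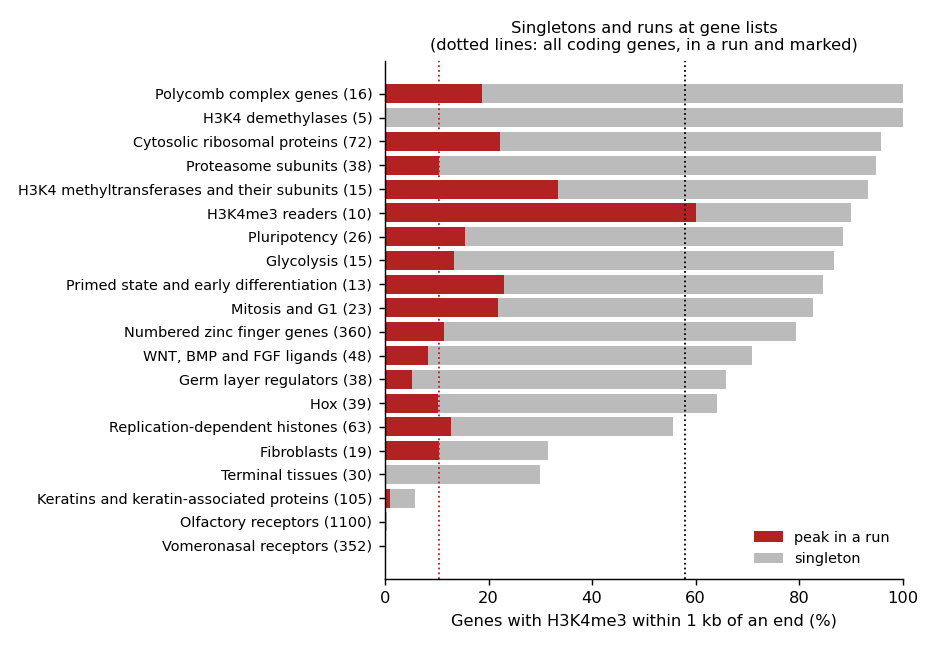
Percent of the genes of each list (horizontal axis; number of genes in brackets) with H3K4me3 within 1 kb of an end, divided into genes whose peak is in a run (red) and singletons (grey). Dotted lines give all protein-coding genes, 10.5% in a run (red) and 58% marked (black); readers of the mark reach farthest in red, with 6 of 10 genes.

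Genes for writers and readers of the mark included some in runs, and none of the 5 H3K4 demethylase genes was in one. Of 15 autosomal genes of the H3K4 methyltransferase complexes, 14 were marked. In runs were 5 of these (35.7%, interval 16.3 to 61.2%, which includes the 18.1% of all marked genes). They were the catalytic genes Kmt2a (peaks of 948 and 519 bp, gap 441 bp), Kmt2b (983 and 415 bp, gap 636 bp), Kmt2c (1198 and 532 bp, gap 294 bp) and Setd1b (780 and 667 bp, gap 1600 bp), and Paxip1, a subunit of the KMT2C and KMT2D complexes (644 and 1137 bp, gap 204 bp). Their paralogs Setd1a and Kmt2d had a single peak at the end described, of 1996 and 1222 bp. For Kmt2d that was the end of lower coordinate. Peaks are given for 1 end of each gene and ends carry no strand, so this need not be its start. The shared core subunits Wdr5 (1819 bp), Rbbp5 (1453 bp) and Ash2l (1350 bp) also had 1 peak each, as did Wdr82 (1184 bp), Cxxc1 (974 bp; the CpG-binding subunit), Ncoa6 (867 bp) and Men1 (748 bp). Dpy30, the remaining core subunit, had no peak within 1 kb of an end.

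All 5 autosomal H3K4 demethylase genes were marked by a single peak: Kdm5b (2066 bp), Kdm5a (1888 bp), Kdm1a (1406 bp), Kdm1b (1116 bp) and Kdm2b (1030 bp; also known for acting on H3K36). With 5 genes, 0 in runs has an interval that reaches 43.4%, which includes the 18.1% of all marked genes. Of 10 reader genes, 9 were marked and 6 were in runs (66.7%, interval 35.4 to 87.9%). Ing2 had 1591 and 646 bp, Ing5 1211 and 354 bp and Ing1 352 and 1232 bp (members of the ING family, which direct histone deacetylase or acetyltransferase complexes to the mark). Bptf, the reader subunit of the NURF remodeller, had 1201 and 294 bp, Chd1, a chromodomain remodeller, 294 and 725 bp, and Dido1 751 and 751 bp. Taf3 (1517 bp), Ing3 (1048 bp) and Ing4 (950 bp) had single peaks, and Spin1 was unmarked. Bptf and Chd1 rest on a second peak of the shortest length in the list. Without peaks of that length 4 reader genes were in runs. When peaks were joined only up to 1 kb, 4 methyltransferase genes and 4 reader genes were in runs, and among the longer peaks 0 and 1.

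Genes of the stem cell state were nearly all marked, and the share of pluripotency genes in runs was near that of all marked genes. Of 26 pluripotency genes, 23 were marked, 4 of them in runs (17.4%, interval 6.98 to 37.1%), against 18.1% of all marked genes. The 23 had a median of 1710 bp covered, with the peaks of a run added up. Over all coding genes the medians were 1358 bp for those marked in runs and 948 bp for those marked by singletons. Sox2 had 3 peaks of 312, 1451 and 555 bp, the last 1398 bp beyond the second. Klf4, a reprogramming factor, had 570 and 1623 bp, Tet2 1250 and 383 bp, and Dppa5a 375 and 644 bp. Single peaks covered Nanog (2792 bp), Fgf4 (2686 bp), Tbx3 (2268 bp), Pou5f1 (2019 bp) and Klf2 (2002 bp). Fgf4 encodes a growth factor made by stem cells. Other single peaks were short, among them those at Dppa3 (436 bp), Lin28a (592 bp) and Dppa2 (628 bp). All of these single-peak genes were chosen after their values were seen. Esrrb, Nr5a2 and Dnmt3l had no peak within 1 kb of an outermost end, which does not speak for internal promoters. Of 13 genes of the primed state and early differentiation, 11 were marked and 3 in runs: Zic2 (1125 and 585 bp), Lef1 (561 and 351 bp) and Pou3f1 (294 and 532 bp). Dnmt3a and Lefty1 were unmarked. At a join distance of 1 kb, 1 of these 13 genes was in a run.

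Polycomb genes were all marked, 16 of 16, and 3 were in runs: Ezh2 (1073 and 684 bp, gap 183 bp), Phc1 (692 and 619 bp) and Pcgf2 (1135, 540 and 542 bp). Pcgf2 shares its run with the proteasome gene Psmb3. Of 38 germ layer regulators, 25 were marked (65.8%, interval 49.9 to 78.8%, against 58% of all coding genes), with a median of 876 bp, and 2 were in runs, among them the endoderm gene Gata6 (855 and 375 bp, gap 1819 bp). Foxa1 and Foxa2 were unmarked. WNT, BMP and FGF ligands had 34 of 48 marked (70.8%, 56.8 to 81.8%), with a median of 650.5 bp, and 4 in runs, led by Fgf18 (971 and 294 bp) and Wnt3a (501 and 446 bp). Bmp4 and Bmp5 were unmarked.

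Of 39 Hox genes, which pattern the body axis, 25 were marked (64.1%, interval 48.4 to 77.3%, against 58% of all coding genes). Of the 25, 4 lay in 3 distinct runs, all in the Hoxb cluster (16.0%, 6.40 to 34.7%, against 18.1% of all marked genes). Hoxb9 had 472 and 706 bp with a gap of 155 bp, and Hoxb2 787 and 316 bp with a gap of 832 bp. Hoxb7 and Hoxb8 shared peaks of 402 and 658 bp that were 2108 bp apart, and Hoxa10 and Hoxa11 were unmarked. No marked gene of the Hoxa, Hoxc or Hoxd clusters lay in a run. With a join distance of 1 kb, or a gene window of 500 bp, 2 Hox genes were in runs.

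Housekeeping and proliferation genes were mostly marked, and for those called unmarked, starts inside the gene were not looked at. Of 72 cytosolic ribosomal protein genes, 69 were marked, with a median of 1461 bp, and 16 were in runs (23.2%, interval 14.8 to 34.4%). Rps2 had peaks of 502, 858 and 522 bp and Rpl35 of 609, 499 and 417 bp, while Rpl17 and Rpl18 were unmarked. Of 38 proteasome genes, 36 were marked and 4 in runs (11.1%), among them Psmb1 (948 and 758 bp). Psma6 and Psmc5 were unmarked. Of 23 genes of mitosis and G1, 19 were marked and 5 in runs, including the MYC family gene Mycn (940 and 1423 bp, gap 222 bp) and Cdc20, the activator of the anaphase-promoting complex (988 and 644 bp, gap 166 bp). Ccna2 and Ccnd2 were unmarked. Glycolysis had 13 of 15 marked and 2 in runs, Pkm (598 and 1254 bp) and Pfkp (318 and 770 bp), with Aldoa and Ldha unmarked.

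Gene families in tandem clusters varied. Of 63 replication-dependent histone genes, 35 were marked, and 8 lay in 5 distinct runs. H3c1, H1f1 and H4c1 shared peaks of 474, 330 and 294 bp, and H1f6 and H2ac1 were unmarked. Of 360 numbered zinc finger genes, 286 were marked and 41 in runs (14.3%, interval 10.7 to 18.9%). Zfp654 had 954, 486 and 370 bp and Zfp827 1647 and 479 bp, while Zfp109 and Zfp217 were unmarked. Of 1100 olfactory receptor genes, 5 were marked (0.455%, 0.194 to 1.06%), led by Olfr94 (1513 bp) and Olfr95 (751 bp), and of 352 vomeronasal receptor genes 1 was, Vmn1r4 (1108 bp). None of these 6 was in a run. Keratins and keratin-associated genes had 6 of 105 marked, Krt10 in a run of 477 and 635 bp and Krt18 by 801 bp. With a join distance of 1 kb, 25 of the zinc finger genes were in runs, and at 5 kb 22 of the histone genes. Without the shortest peaks, 5 histone genes were in runs.

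Genes of specialised cells were mostly unmarked. Of 30 terminal tissue genes, 9 were marked, none in a run, with Lor (902 bp; an epidermal envelope protein) and Mbp (819 bp) the longest and the actin genes Acta1 and Actc1 unmarked. Of 19 fibroblast genes, 6 were marked and 2 in runs, the mesenchymal factor Twist1 (417 and 791 bp) and Vim (303 and 322 bp; vimentin), with Acta2 and Col1a1 unmarked. Several of these short marks can belong to a neighbouring gene with an end within 1 kb, which the list of positions cannot tell apart.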

How the data were processed

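ChIP-exo was performed on Bruce-4 mouse embryonic stem cells, and 1 H3K4me3 library is described. The authors deposited each peak list as chromosome, start and end, a unit other than a score or count, so length and distance are the measurements and depth is unknown. The submitters' processing notes name MACS2 (no version), bedtools 2.30.0, Picard 2.27.4 and Bowtie2 2.4.5, with build mm10 and no roles. The calling threshold and any control library are not stated in the sources.

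Gaps, runs and windows were computed with pandas 2.3.3, numpy 2.4.6 and scipy 1.17.1 under Python 3.11.15, drawn with matplotlib 3.10.9 and tested on simulated positions. A gap is the uncovered distance between neighbours. Windows of 1 Mb counted peaks and genes by midpoint, from the RefSeq table of GRCm38.p6. That table gives outermost ends without strand, so either end within 1 kb counted as a gene end. Strand and sequence came from a promoter table with starts for 79.6% of coding genes and none on chromosome 18. Peaks on X, Y, the mitochondrial chromosome and scaffolds (618) were left out.

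Named were the 10 runs with the most peaks and the 10 longest, the 10 longest gaps, the 10 densest windows, 5 gene-rich windows with at most 1 peak and 5 peak-rich ones with at most 5 genes. Per list, the 2 marked members with the most peaks in their run and the first 2 unmarked in alphabetical order were named, with all members of the lists on H3K4 methylation. A list member named by this rule is not reported here. Other genes were chosen after their values were seen. The members and the 20 gene lists were chosen with earlier results of these data known. From those lists, 11 symbols were not on autosomes. Alternatives varied the peaks kept, join distance, gene window, density window and chromosomes. No test between samples was possible.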

Additional observations from a re-analysis of the deposited data

Results flagged for a closer look

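The H3K4me3 list held signal on sequences outside the autosomes, which no comparison above used. On X lay 594 peaks. The mitochondrial chromosome, which carries no histones, had 5, and unplaced scaffolds had 17. No control library was analysed here against which to set these counts, and their source was not tested.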

How the results depend on the processing

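Positions without height or replicate limit these results: a threshold on enrichment could not be varied, and length took its place. No paired analysis was possible because H3K4me3 had 1 library. With only peaks above the median length kept, the median gap was 68245 bp, 4.06% of peaks and 2.91% of marked genes were in runs, 88.2% of runs and 77.0% of singletons lay at a coding gene end, and gaps of at most 3 kb made up 2.05% (H3K4me3), 5.59% (CTCF) and 5.28% (RAD21). Among those peaks, 45.6% of runs of 2 had the start between the peaks and 57.8% the longer peak downstream (added after the data had been seen). Joining up to 1, 5 and 10 kb put 18.4, 24.2 and 38.3% of peaks and 15.7, 22.0 and 35.7% of marked genes in runs. At 10 kb, 82.9% of runs lay at a coding end and the CpG difference was 0.0312. Gene windows of 500 and 2500 bp gave 78.3 and 84.3% for runs and 51.0 and 59.2% for singletons. Starts in place of ends gave 72.1 and 48.4%, and centres 70.8 and 51.6% (both added). With equal numbers of longest peaks, gaps of at most 3 kb were 4.34% of CTCF and 2.16% of RAD21 gaps. In each of these alternatives runs exceeded singletons in the share at a coding end. The density rho stayed between 0.758 and 0.842 in every alternative run. Without the shortest peaks (added), 83.0% of runs and 58.0% of singletons lay at a coding end and 17.4% of marked genes were in runs, and the other 6 results run moved by no more than their error or spread. Neither adding X, for the spacing, run, gene-end and density results, nor leaving out genes that end before 3 Mb (added), for the gene-end, density and CpG results, moved any beyond that. Of 180 recomputed counts of list members in runs, 43 moved by over 1.5 times, 16 of them with the longer peaks and 16 at 10 kb.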
